A study of Homo sapiens with 8 samples.

Results

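The genes described here were BIRC3 and 9 other target genes of the transcription factor NF-κB, namely NFKBIA, TNFAIP3, NFKB2, RELB, ICAM1, CXCL8 (listed elsewhere as IL8), CXCL1, CXCL2 and IL6. They were the 10 genes of 43317 gene names on the arrays, held by 13 of 58201 probes. BIRC3 was selected on its own log2 ratios, which were among the highest on the miR-139-5p array and among the lowest on the miR-30c-2-3p array. The other members were selected by name as known targets in the same pathway. The values of BIRC3 on these 2 arrays are therefore a description, and nothing was tested with them.

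NF-κB is a family of dimeric transcription factors. In the classical pathway, receptors such as those for TNF and IL-1 activate the IKK kinase complex, which triggers breakdown of IκB proteins and frees RELA and NFKB1 dimers to enter the nucleus. In the alternative pathway, the kinase MAP3K14 (NIK) drives processing of the NFKB2 precursor, which pairs with RELB. Both routes switch on genes for survival factors, chemokines, adhesion molecules and for their own inhibitors, so that the targets also form feedback loops. The pathway is often active in pancreatic and colorectal cancer cells.

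Gene expression was measured on 8 arrays with 2 channels each, with 1 array per miRNA. HCT116, a human colorectal cancer line, was transfected with the 5p or the 3p strand of miR-139 or of miR-143. PANC-1, a human pancreatic cancer line, was transfected with either strand of miR-30a or with the 5p or 2-3p strand of miR-30c. The miRNAs were delivered with the lipid reagent Lipofectamine RNAiMAX. RNA of the transfected cells was labelled with Cy5, and each array also carried Cy3-labelled RNA of mock cells of that line. The labels give the mock cells as not transfected, and the study's methods as treated without a precursor, so whether they received the reagent is not settled here. No dye was swapped and no array held RNA of cells given a control miRNA, so the miRNA, the transfection itself and the dye cannot be told apart within an array. Both are established cell lines, and no array was repeated.

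Values over several arrays are given below in the order of the following list unless an array is named. The miRNAs are shown because the 4 arrays on which BIRC3 was 2-fold higher carried 4 different seeds, and the pair on which it was 2-fold lower another 2. Mature sequences are from RefSeq (GRCh38.p14), 5′ to 3′, with the seed, bases 2 to 8, in capitals.
miR-139-5p: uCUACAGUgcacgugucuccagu
miR-139-3p: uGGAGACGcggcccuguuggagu
miR-143-5p: gGUGCAGUgcugcaucucuggu
miR-143-3p: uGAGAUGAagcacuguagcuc
miR-30c-5p: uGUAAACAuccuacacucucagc
miR-30c-2-3p: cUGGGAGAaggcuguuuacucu
miR-30a-5p: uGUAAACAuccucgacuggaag
miR-30a-3p: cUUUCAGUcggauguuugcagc
In PANC-1, miR-30c-5p and miR-30a-5p shared a seed, and the seeds of miR-30c-2-3p and miR-30a-3p differed from it and from each other.

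The transfections were checked with the probes themselves. Genes were compared by whether their 60-base probe held a heptamer complementary to the seed (to bases 2 to 8, or to bases 2 to 7 followed by A). On 7 arrays, the median log2 ratio was lower with such a heptamer than without, with differences of -0.0208 (miR-139-3p) to -0.0848 (miR-30c-5p). For the array whose label is miR-143-3p it was higher, with a median of 0.03 over 199 genes with a heptamer against 0.01 without. By this measure the array did not show the direction its label calls for. The difference of 0.0226 was about as small as that of miR-139-3p, and no spread was taken, so the measure cannot decide whether a label is right. Of the 13 probes of the members, 1 held a heptamer of any of the 8 miRNAs. This was the ICAM1 probe, with the heptamer of miR-30a-3p. For a given miRNA, the probes of 0.616% to 1.45% of detected genes held a heptamer. That share is for 1 miRNA at a time, so it is not the one for the count over all 8 miRNAs. A probe covers a part of a transcript, so a heptamer elsewhere in it is missed.

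The scanner headers give 1 slide and 1 scan for the 8 arrays, with HCT116 in column 1 and PANC-1 in column 2, so cell line and column cannot be told apart. Between 20107 and 22063 genes per array were detected, meaning well above background in at least 1 channel. In mock cells, the mean log2 level of PANC-1 minus that of HCT116 was -4.43 for EPCAM, -3.03 for CDH1 and -1.26 for CDX2, which are epithelial or intestinal markers, and in neither line was the fourth one, VIL1, well above background. It was 8.87 for VIM and 2.49 for ZEB1, which are mesenchymal markers. CDH2 was well above background in PANC-1 alone, and FN1 in neither line. Of the leukocyte markers, CD3E was not well above background in any mock channel, and PTPRC and CD14 were, at mean levels of 5.95 to 6.37.

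Levels are log2 intensities after background correction and scaling between arrays, and the lowest level well above background was 5.56 to 5.85 per channel on this scale. Differences are log2 ratios of transfected over mock cells. Genes with a ratio of -1 or below were counted as lower and genes with 1 or above as higher, which is a 2-fold difference. With 1 array per miRNA there is no test of a ratio. Repeated spots of a probe had log2 ratios with a median SD of 0.0393 to 0.0647 per array, which is error within a hybridisation and not between cultures.

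BIRC3 encodes cIAP2, an inhibitor of apoptosis and a ubiquitin ligase of the TNF receptor complex. Its probe lies at chr11:102208356-102208415 (hg19, plus strand). In mock HCT116, the BIRC3 level was 6.65, 6.66, 8.98 and 9.003. In transfected HCT116 it was 7.999, 8.06, 10.01 and 10.46. All 4 transfected HCT116 samples thus lay above their own mock, although the mock level beside the miR-139 strands was far below that beside the miR-143 strands.

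In mock PANC-1, the BIRC3 level was 10.89, 10.91, 11.65 and 11.67. In transfected PANC-1 it was 11.59, 7.73, 11.77 and 9.79. The samples given miR-30c-2-3p and miR-30a-3p lay below every mock PANC-1 channel, and both samples given a 5p strand lay above their own mock.

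The log2 ratio of BIRC3 was 1.35, 1.40, 1.03 and 1.46 in HCT116 and 0.70, -3.18, 0.12 and -1.87 in PANC-1. These are 2.04-fold to 2.75-fold higher levels on the 4 HCT116 arrays, a 9.06-fold lower level after miR-30c-2-3p and a 3.66-fold lower level after miR-30a-3p. BIRC3 ranked 3 from the highest of 20443 detected genes after miR-139-5p and 2 from the lowest of 20703 after miR-30c-2-3p, the values that selected it. On the arrays the selection did not use, it ranked 16 from the highest of 20107 genes after the miRNA labelled miR-143-3p and 60 of 20498 on the miR-143-5p array. Its rank was 170 from the highest of 20708 after miR-139-3p and 17 from the lowest of 22063 after miR-30a-3p. After miR-30c-5p and miR-30a-5p, BIRC3 ranked 422 from the highest of 20887 and 4860 from the highest of 20944. The BIRC3 mock level on the miR-139-3p array (6.66) was nearly that on the miR-139-5p array (6.65), and both may hold the same mock RNA. The rank after miR-139-3p is therefore not independent of the selection.

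**Figure D1:**
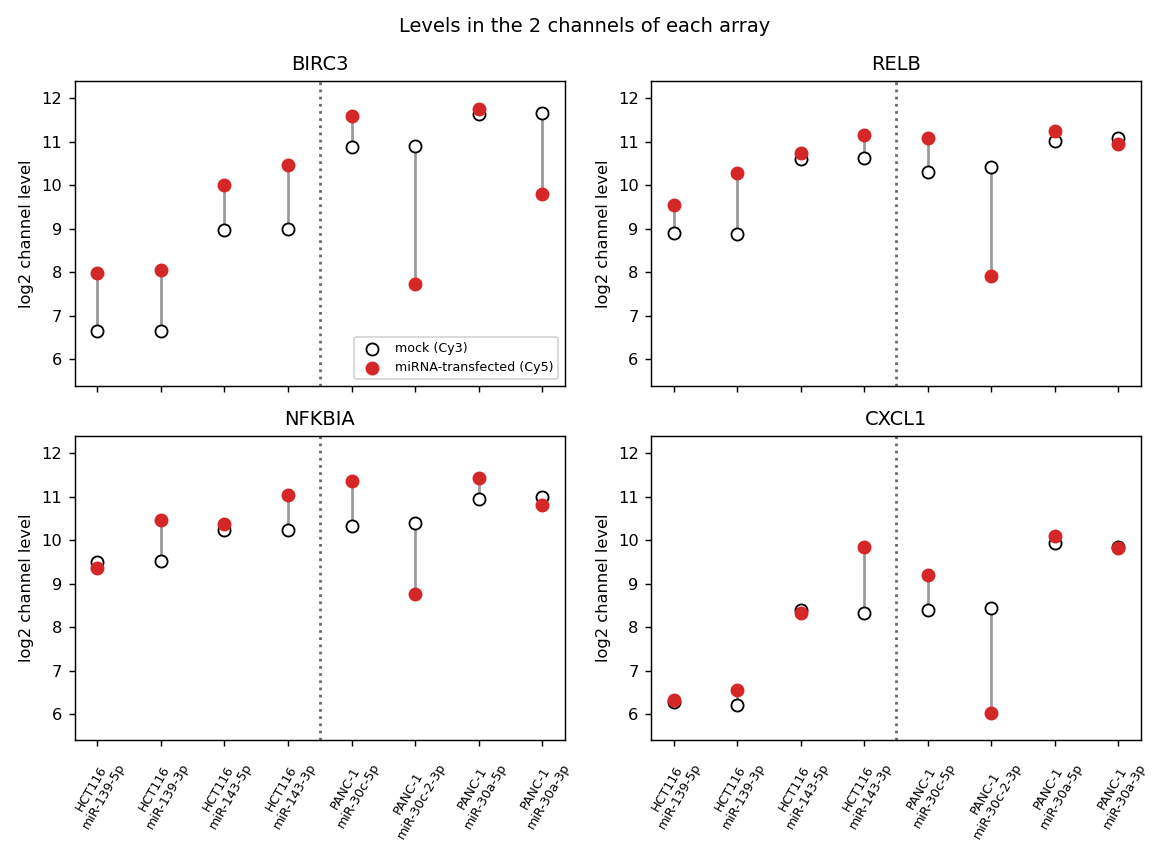
Log2 channel levels of BIRC3, RELB, NFKBIA and CXCL1 (y axes) on the 8 arrays (x axes), with open circles for mock cells, red circles for miRNA-transfected cells and a grey line joining the 2 channels of an array. BIRC3 lay above its mock on the 4 HCT116 arrays (left of the dotted line), and the 4 genes lay far below their mocks after miR-30c-2-3p.

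Processing changed the size of several BIRC3 ratios. On the miR-139 arrays, where the mock level was lowest, the ratios were 2.07 and 2.19 with a background offset of 1 in place of 50, and 2.20 and 2.40 by the scanner software. With median centring in place of loess, the PANC-1 ratios were 1.27, -2.96, 0.59 and -1.11. Relative to the mean of the other 3 arrays of the line, BIRC3 was 0.05, 0.12, -0.38 and 0.20 on the HCT116 arrays, so that the ratios above 1 were common to the 4 arrays. The same measure gave 2.34, -2.83, 1.57 and -1.09 on the PANC-1 arrays. The means subtracted on the PANC-1 arrays other than miR-30c-2-3p hold the -3.18 that selected BIRC3. Without subtraction, the ratios after miR-30c-5p and miR-30a-5p were 0.70 and 0.12.

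**Figure D2:**
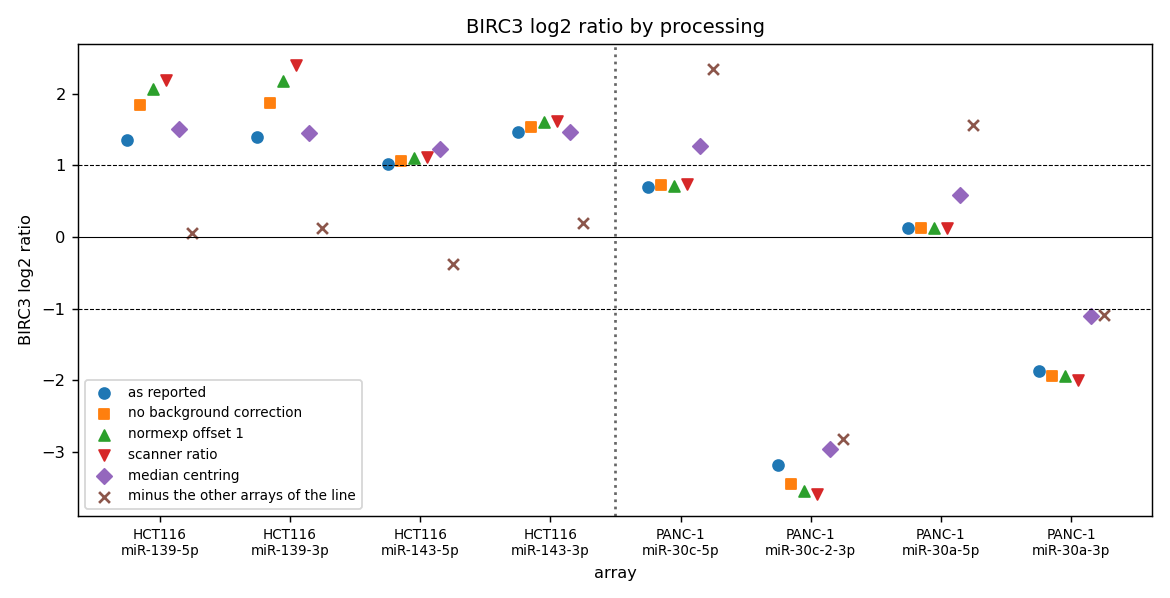
BIRC3 log2 ratio (y axis) on each array (x axis) under 6 ways of processing, 1 symbol each, with dashed lines at the 2-fold limits. The miR-30c-2-3p ratios lie between -3.59 and -2.83 and the miR-30a-3p ratios between -1.997 and -1.09, and the HCT116 ratios fall to near 0 once the other arrays of the line are subtracted.

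The feedback inhibitors came next in the order of roles. NFKBIA encodes IκBα, which holds NF-κB dimers in the cytoplasm, and its probe (chr14:35870788-35870847, hg19, minus strand) was printed 10 times on each array. The mock level of NFKBIA was 9.51, 9.52, 10.23 and 10.24 on the HCT116 arrays and 10.34, 10.39, 10.94 and 11.003 on the PANC-1 arrays. The transfected level was 9.36, 10.46, 10.37 and 11.03 in HCT116 and 11.36, 8.77, 11.44 and 10.82 in PANC-1. The miR-30c-2-3p sample was the lowest of the 8 transfected samples and lay below every mock. The log2 ratio was -1.61 after miR-30c-2-3p, a 3.06-fold lower level, and 1.03 after miR-30c-5p, a 2.04-fold higher level. It was 0.94 after miR-139-3p and 0.79 after miR-143-3p, and between -0.18 and 0.495 on the other 4 arrays. With the offset of 1, the miR-139-3p ratio was 1.01.

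TNFAIP3 encodes A20, a ubiquitin-editing enzyme that ends TNF and IL-1 signalling (probe at chr6:138203679-138203738, hg19, plus strand). It was dim, with levels of 5.93 to 7.04 over both channels of the 8 arrays. Its log2 ratios ran from -0.43 after miR-30c-2-3p to 0.45 after miR-30c-5p, and none reached 2-fold. At this brightness the ratio depended on the background correction. With the offset of 1, the TNFAIP3 ratio was -1.15 after miR-30c-2-3p and 1.49 after miR-139-3p.

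RELB and NFKB2 encode the subunits of the alternative pathway and are themselves targets. The mock level of RELB (probe at chr19:45541385-45541444, hg19, plus strand) was 8.91, 8.88, 10.61 and 10.64 in HCT116 and 10.32, 10.43, 11.02 and 11.08 in PANC-1. The transfected level was 9.55, 10.28, 10.74 and 11.16 in HCT116 and 11.10, 7.93, 11.25 and 10.94 in PANC-1. The miR-30c-2-3p sample was again the lowest of the 8 transfected samples. The log2 ratio of RELB was -2.50 after miR-30c-2-3p, a 5.65-fold lower level. It was 1.40 after miR-139-3p, a 2.64-fold higher level, and between -0.14 and 0.78 on the other 6 arrays.

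NFKB2 (probe at chr10:104161053-104161229, hg19, plus strand) had mock levels of 6.79 to 7.54. Its log2 ratio was -0.72 after miR-30c-2-3p, -0.38 after miR-30a-3p, and between 0.02 after miR-139-5p and 0.74 after miR-30c-5p elsewhere. None reached 2-fold. With the offset of 1, NFKB2 was at -1.49 after miR-30c-2-3p. The lower ratio was thus largest after miR-30c-2-3p for BIRC3, NFKBIA, TNFAIP3, NFKB2 and RELB alike, under the processing reported here.

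ICAM1 encodes an adhesion molecule for leukocytes, and its probe (chr19:10396298-10396358, hg19, plus strand) was printed 10 times. It was at 6.17 to 6.59 in mock HCT116 and at 8.98 to 9.95 in mock PANC-1. Unlike BIRC3, ICAM1 had a log2 ratio of -0.10 after miR-30c-2-3p, with levels of 8.98 in mock and 8.88 in transfected cells. Its lowest ratio was -0.78 after miR-30a-3p, the miRNA whose seed heptamer its probe held, and with median centring that ratio was -0.09. No ICAM1 ratio reached 2-fold.

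The chemokines CXCL1, CXCL2 and CXCL8 attract neutrophils through the receptor CXCR2. CXCL1 had 2 probes. The brighter one (chr4:74736850-74736909, hg19, plus strand) had mock levels of 6.27, 6.22, 8.40 and 8.33 on the HCT116 arrays and 8.39, 8.45, 9.93 and 9.84 on the PANC-1 arrays. Its transfected levels were 6.33, 6.55, 8.34 and 9.84 in HCT116 and 9.20, 6.02, 10.09 and 9.82 in PANC-1. The CXCL1 level was near the bottom of the scale after miR-30c-2-3p, and it lay furthest above its mock after the miRNA labelled miR-143-3p. The log2 ratios were -2.43 after miR-30c-2-3p, a 5.38-fold lower level, and 1.51 after miR-143-3p, a 2.85-fold higher level. The other 6 ratios were between -0.06 and 0.81.

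The second CXCL1 probe (chr4:74735646-74735705, hg19, plus strand) gave -0.88 after miR-30c-2-3p and 1.04 after miR-143-3p, the same directions. The first of these did not reach 2-fold. For the brighter probe, the miR-30c-2-3p ratio was -4.18 with the offset of 1. For the second probe it was -2.39.

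CXCL2 was represented by a probe (chr4:74964342-74964401, hg19, minus strand) whose transcripts also include the close relative CXCL3, so the 2 genes cannot be separated there. Its levels were 5.83 to 7.89 and its log2 ratios -0.30 after miR-30c-2-3p to 0.68 after miR-143-3p. The miR-30c-2-3p sample was not well above background in Cy5, and the level was there at least 1.23-fold lower. The other probe of CXCL2 (chr4:74962985-74963044, hg19, minus strand), which named CXCL2 transcripts alone, gave 0.32 after miR-143-3p and was not well above background in either channel of the miR-30c-2-3p array.

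CXCL8 (probe at chr4:74609265-74609324, hg19, plus strand) was not well above background in either channel of the miR-139-5p, miR-139-3p and miR-30c-2-3p arrays. After miR-30c-5p it was well above background in transfected cells alone and was at least 1.1-fold higher. On the remaining 4 arrays its log2 ratio was 0.02 and 0.45 after the miR-143 strands and 0.01 and -0.17 after those of miR-30a. IL6, the gene of a cytokine of the acute phase, was not well above background in any of the 16 channels with either of its probes (chr7:22771207-22771266 and chr7:22769363-22769422, hg19, plus strand), so no ratio is given for it.

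**Figure D3:**
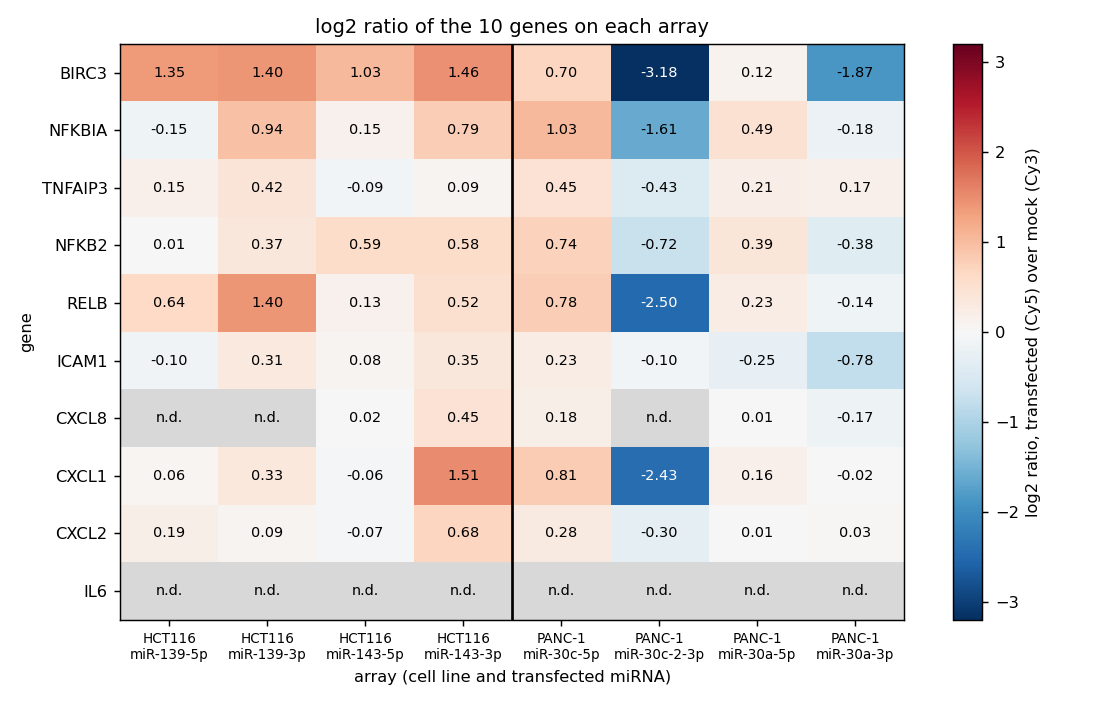
Log2 ratio of transfected over mock cells for the 10 genes (rows) on the 8 arrays (columns), with red for higher, blue for lower and grey (n.d.) where the gene was not well above background in either channel. BIRC3, RELB, CXCL1 and NFKBIA are the darkest blue cells of the miR-30c-2-3p column, at -3.18, -2.50, -2.43 and -1.61.

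The counts over the members were read beside the share of all detected genes with a difference of the same size. In HCT116, no detected member was lower by 2-fold on any array, where 0.201%, 2.82%, 1.0% and 0.925% of detected genes were. After miR-139-5p, 1 of 8 detected members was higher (BIRC3), against 0.0587% of detected genes, and this is the gene and array of the selection. After miR-139-3p, 2 of 8 were higher (BIRC3 and RELB), against 2.11%, with a BIRC3 mock level nearly that of the miR-139-5p array. After miR-143-5p, 1 of 9 was higher (BIRC3), against 0.356%. After miR-143-3p, 2 of 9 were higher (CXCL1 and BIRC3), against 0.517%. The members' median log2 ratio was 0.11, 0.40, 0.08 and 0.585 on these 4 arrays, and that of all detected genes was between 0.005 and 0.012.

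In PANC-1 after miR-30c-5p, 1 of 9 detected members was higher (NFKBIA), against 0.747% of detected genes, and 0 were lower, against 0.445%. After miR-30c-2-3p, 4 of 8 were lower (BIRC3, RELB, CXCL1 and NFKBIA), against 4.14%, and 0 were higher, against 1.71%. BIRC3 was selected on this array, so nothing is read from that count. All 8 detected members had a ratio below 0 on that array, where 47.3% of detected genes did, and with median centring it was 7 of 8. After miR-30a-5p, 0 of 9 were lower or higher, against 0.263% and 0.306%. After miR-30a-3p, 1 of 9 was lower (BIRC3), against 1.1%, and 0 were higher, against 0.372%. The members' median log2 ratio was 0.70, -1.17, 0.16 and -0.17 on these 4 arrays, and that of all detected genes was between 0.012 and 0.021. Members dim in both channels (IL6 on all arrays, CXCL8 on 3) could not enter these counts.

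The background offset and the centring moved the counts on the PANC-1 arrays. With the offset of 1, 7 of the 8 detected members were lower after miR-30c-2-3p, the added ones being NFKB2, TNFAIP3 and CXCL2 (-1.43), and the count over all detected genes went from 857 to 2113 of 20703. With median centring, 5 of 9 members were higher after miR-30c-5p, where the count over all detected genes went from 156 to 832 of 20887. With the same centring, the members' median after miR-30a-3p turned from -0.17 to 0.45. Median centring also moved the median of all detected genes, by 0.20 after miR-30c-5p, 0.14 after miR-30a-5p and 0.28 after miR-30a-3p, so 0.45 stands beside 0.30 for all genes there. On the 4 PANC-1 arrays, the share of called genes that were lower was 37.3%, 70.8%, 46.2% and 74.7%, against 2.8%, 44.4%, 6.94% and 2.31% with median centring and 42.2%, 56.3%, 38.4% and 40.5% by the scanner software. On the HCT116 arrays it was 77.4%, 57.3%, 73.7% and 64.1%, against 17.2%, 54.0%, 33.8% and 57.2% with median centring and 47.6%, 48.9%, 54.3% and 53.6% by the scanner software.

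**Figure D4:**
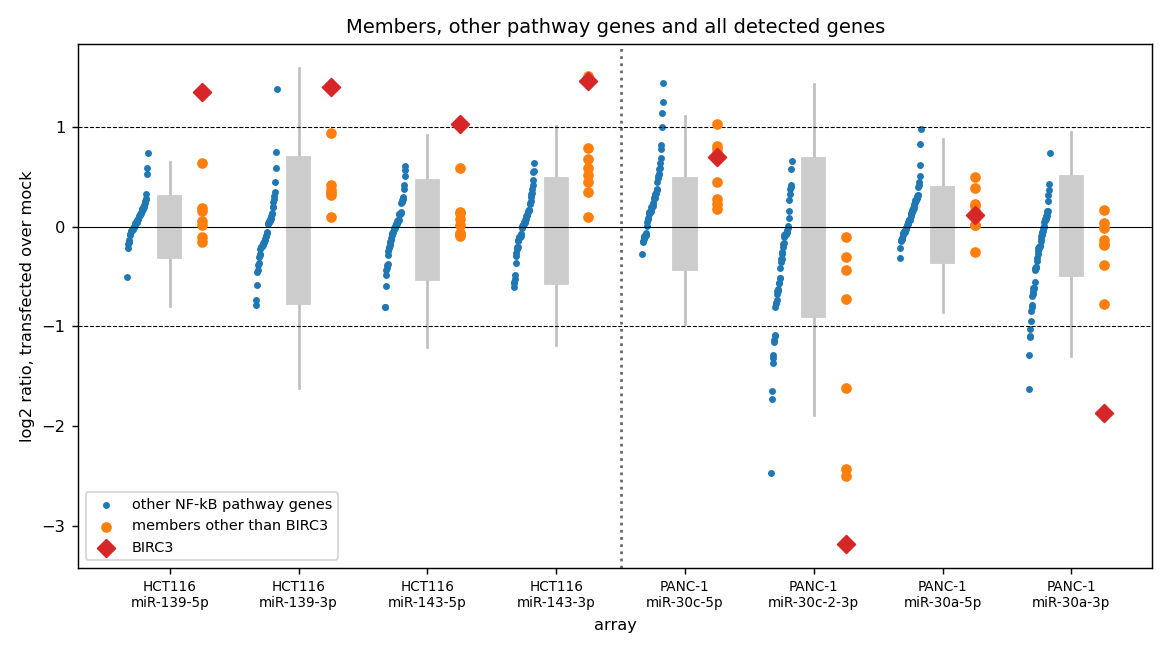
Log2 ratio (y axis) on each array (x axis) for BIRC3 (red diamonds), the other detected members (orange) and the other detected NF-κB pathway genes (blue), beside all detected genes in grey, with a box and a longer line for their spread and dashed lines at the 2-fold limits. The members spread downward after miR-30c-2-3p, where the grey line ends at -1.89 and BIRC3, RELB and CXCL1 lie beyond it.

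The promoters of 3 of the 4 members that were lower after miR-30c-2-3p are shown. These genes are listed as NF-κB targets, and NF-κB binds DNA at κB elements, but binding was not measured here. The promoters are from RefSeq (GRCh38.p14), 250 bases before to 50 after the start site, 5′ to 3′ on the strand of the gene. Matches to the 10-base κB consensus, on either strand, are in capitals. The promoters lie at chr11:102317234-102317533 (BIRC3, plus strand), chr14:35404700-35404999 (NFKBIA, minus strand) and chr4:73869143-73869442 (CXCL1, plus strand).
BIRC3: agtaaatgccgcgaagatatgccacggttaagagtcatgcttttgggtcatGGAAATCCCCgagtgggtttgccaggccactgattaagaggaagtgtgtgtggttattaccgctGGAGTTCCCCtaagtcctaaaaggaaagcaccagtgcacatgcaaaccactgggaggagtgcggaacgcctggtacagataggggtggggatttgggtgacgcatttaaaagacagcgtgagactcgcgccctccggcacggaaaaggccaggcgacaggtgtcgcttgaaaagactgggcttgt
NFKBIA: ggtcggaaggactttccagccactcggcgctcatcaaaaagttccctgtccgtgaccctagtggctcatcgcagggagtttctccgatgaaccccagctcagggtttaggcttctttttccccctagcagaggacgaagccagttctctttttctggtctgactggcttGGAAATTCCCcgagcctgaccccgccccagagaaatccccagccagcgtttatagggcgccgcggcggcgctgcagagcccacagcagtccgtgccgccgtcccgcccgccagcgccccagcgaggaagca
CXCL1: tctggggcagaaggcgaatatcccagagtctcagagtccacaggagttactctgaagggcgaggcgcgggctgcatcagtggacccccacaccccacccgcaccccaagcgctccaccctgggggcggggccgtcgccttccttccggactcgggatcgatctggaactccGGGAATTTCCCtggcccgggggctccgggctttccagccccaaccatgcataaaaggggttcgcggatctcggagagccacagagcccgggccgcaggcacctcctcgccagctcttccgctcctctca
The promoter of RELB was not used here. BIRC3 held 2 matches, which began 199 and 135 bases before the start site. NFKBIA held 1 match, which began 81 bases before it. CXCL1 held 2 overlapping matches, 1 on each strand, which began 79 and 78 bases before it and are printed as 1 run of capitals. Of 35116 promoters of this length, 3956 (11.3%) held the consensus. By gene it was 3619 of 27305 (13.3%), and 7 of the 9 members with a promoter, ICAM1 and CXCL8 being the others. A match describes letters in this window and not a bound site, and these are genes chosen as known targets.

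The rest of the pathway was followed with a list of 67 other genes, all of which were on the arrays, and 47 to 56 of which were detected per array. Of its subunits, NFKB1, RELA and REL were detected on all 8 arrays and none reached 2-fold on any. After miR-30c-2-3p their log2 ratios were -0.20, 0.38 and -0.07. The log2 ratio of BIRC2, the paralog of BIRC3 that encodes cIAP1, was -0.74 after miR-30c-2-3p and -1.02 after miR-30a-3p, and 0.53 after miR-139-5p and miR-30c-5p. It was between -0.11 and 0.22 on the other 4 arrays. The ligand genes TNF and IL1B were near the bottom of the scale. TNF was well above background on the miR-30c-5p, miR-30a-5p and miR-30a-3p arrays, with log2 ratios of 0.32, 0.29 and -0.20. IL1B was well above background in no mock channel and in 2 transfected ones.

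After miR-30c-2-3p, 10 of 51 detected pathway genes were lower, against 4.14% of all detected genes, and 0 were higher, against 1.71%. A ratio below 0 was found for 41 of the 51, against 47.3% of all detected genes. The 6 with the lowest ratios came from several roles. The chemokine gene CCL2, which attracts monocytes, went from a level of 8.78 in mock cells to 6.31, a log2 ratio of -2.47. TRADD, the adaptor that links the TNF receptor to the pathway, went from 9.69 to 7.96, a log2 ratio of -1.73. CD83, a surface marker of activated antigen-presenting cells, was at -1.65. BCL2A1, a survival factor of the BCL2 family, was at -1.37, TNFAIP2 at -1.32, and TNIP1, a partner of A20, at -1.29. None of the 51 had a heptamer of miR-30c-2-3p in its probe, where 0.952% of all detected genes had one. A count of 0 of 51 is near that share, so nothing is read from it. The median of the list was -0.32, beside 0.01 for all detected genes.

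After miR-30a-3p, 5 of 56 detected pathway genes were lower, against 1.1% of all detected genes, and 0 were higher, against 0.372%, with a median of -0.20. They were IER3, an early response gene, at -1.63, CCL2 at -1.28, PTX3, a secreted pattern recognition molecule, at -1.10, NFKBIE, which encodes IκBε, at -1.10, and BIRC2. With median centring these 5 ratios were between -0.84 and -0.33, so none reached 2-fold. The NFKBIE probe held a heptamer of miR-30a-3p, as did the probes of 1.45% of all detected genes. After miR-30c-5p, 4 of 52 were higher, against 0.747% of all detected genes, and 0 were lower, against 0.445%, with a median of 0.22. They were PTX3 at 1.44, CD83 at 1.25, MAP3K14, the kinase of the alternative pathway, at 1.14, and CCL2 at 1.004. CCL2 and CD83 were thus among the highest of the list after miR-30c-5p and among the lowest after miR-30c-2-3p. These 2 arrays have nearly equal mock levels (8.72 and 8.78 for CCL2). Between the miR-30c and the miR-30a arrays the mock levels differed. PTX3 was 3.92-fold and CCL2 3.82-fold higher in the mock of the miR-30a arrays. Their ratios after miR-30c-5p and miR-30a-3p thus have unlike denominators.

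On the HCT116 arrays and after miR-30a-5p, few genes of the pathway list reached 2-fold. Of 47 to 56 detected genes, 0 were lower on any of these 5 arrays. Of all detected genes, 0.201%, 2.82%, 1.0% and 0.925% were lower in HCT116 and 0.263% after miR-30a-5p. The counts of the list are near these shares, so nothing is read from them. The one higher gene was GADD45B, a stress response gene, at 1.38 after miR-139-3p (1 of 47, against 2.11% of all detected genes). The medians were between -0.10 and 0.09.

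The mock cells of a line were not alike. The 2 arrays of a precursor (miR-139, miR-143, miR-30c or miR-30a, each the source of a 5p and a 3p strand) gave nearly the same mock levels, with an SD of the difference of 0.073 to 0.089 over detected genes, and their deposited names share 1 RNA identifier, while the labels do not say whether they hold the same mock RNA. Between precursors the mock levels differed, and the pairs were compared by size alone. The mean BIRC3 level of mock cells was 6.65 beside the miR-139 strands and 8.99 beside those of miR-143, 5.06-fold higher. CXCL1 was 4.34-fold higher there (6.25 and 8.36), RELB 3.32-fold (8.89 and 10.62), CXCL2 2.19-fold (6.02 and 7.15), and CXCL8 at least 3.00-fold, not being well above background in the miR-139 mocks. These were 5 of 9 members with a difference of 1 or more, where 0.779% of 19373 genes had one, and 0 members were lower, against 0.33%. All 9 members were above 0, against 48.2% of genes, with a median of 1.13, beside -0.01 for all genes. These counts include BIRC3, whose mock level beside miR-139-5p is the denominator of a ratio that selected it, so they are a description. Of 51 pathway genes, 2 were higher, TNIP1 (2.07-fold) and CXCL3 (at least 2.12-fold), named after their values were seen, and 0 were lower.

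In mock PANC-1, CXCL1 was 2.76-fold higher on the miR-30a arrays (9.88) than on the miR-30c arrays (8.42). It was the 1 of 9 members with a difference of 1 or more, against 0.15% of 19386 genes, and 0 were lower, against 0.0671%. ICAM1 was 1.93-fold higher (8.99 and 9.94), BIRC3 1.69-fold (10.90 and 11.66) and RELB 1.60-fold (10.37 and 11.05). Again all 9 members were above 0, against 42.1% of genes, with a median of 0.68, beside -0.02 for all genes. They include BIRC3, whose mock level on the miR-30c-2-3p array is the denominator of the other ratio that selected it. With the background offset of 1, 4 members were 2-fold higher, and the count over all genes went from 29 to 136. The mock level is the denominator of every ratio above, and the cause of the difference between mocks was not tested.

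**Figure D5:**
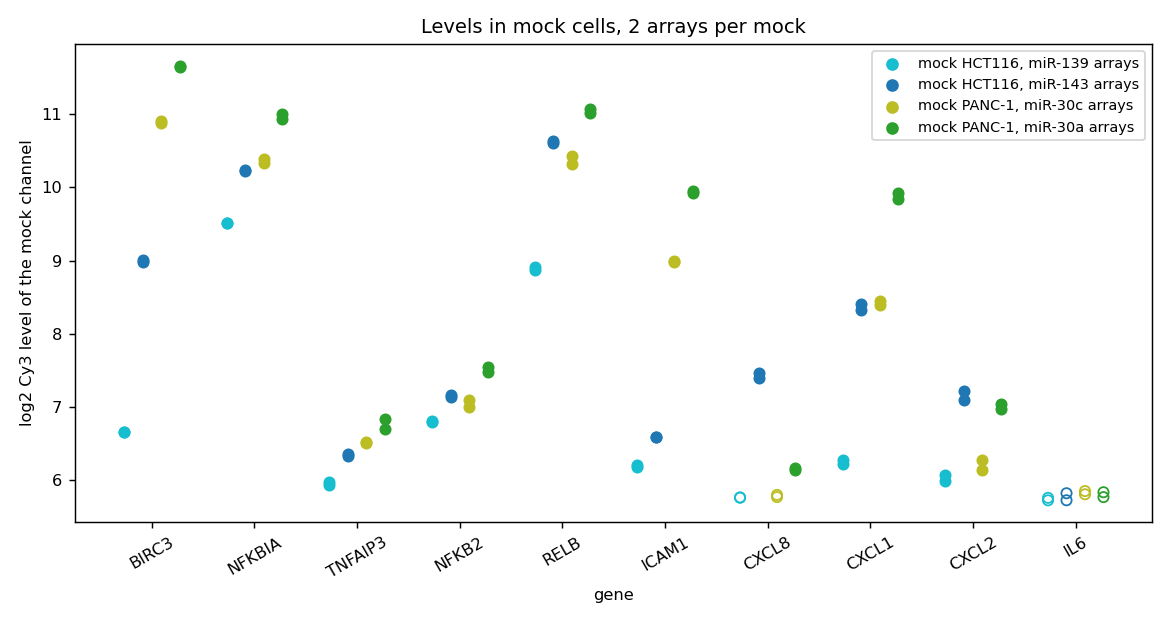
Log2 Cy3 level of mock cells (y axis) for each of the 10 genes (x axis), with 2 arrays for each of 4 mocks shown by colour, and open symbols where the gene was not well above background. The 2 arrays of a mock nearly coincide, whereas BIRC3 stood at 6.65 and 8.99 in the 2 HCT116 mocks and at 10.90 and 11.66 in the 2 PANC-1 mocks.

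The 2 lines were compared in mock cells, with the 2 arrays of a precursor averaged and thus n = 2 per line, by limma with Benjamini-Hochberg adjustment over 21286 genes. ICAM1 was at 6.38 ± 0.28 (SD, n = 2) in HCT116 and 9.46 ± 0.67 (SD, n = 2) in PANC-1. This is a log2 difference of 3.08 ± 0.38 (SE), or 8.45-fold, with an adjusted p of 0.00985 by limma. Of the 8 members other than BIRC3 that entered the fit, it was the 1 that passed, against 19.1% of genes higher in PANC-1, and 0 were higher in HCT116, against 21.4% of genes. ICAM1 passed in each of 10 alternative fits, with adjusted p between 1.27e-05 and 0.0435.

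BIRC3 was at 7.82 ± 1.65 (SD, n = 2) in mock HCT116 and 11.28 ± 0.54 (SD, n = 2) in mock PANC-1, an 11-fold difference. The mock levels of the miR-139-5p and miR-30c-2-3p arrays are part of the ratios that selected BIRC3, so this difference is a description and no test of it is given. The adjusted p by limma was 0.204 for CXCL1 (1.85), 0.156 for NFKBIA (0.79), 0.107 for TNFAIP3 (0.49), 0.337 for RELB (0.95), 0.336 for NFKB2 (0.31), 0.985 for CXCL2 (0.02) and 0.485 for CXCL8 (-0.63), with the log2 difference of PANC-1 over HCT116 in brackets. Each of these members but NFKB2 and CXCL2 passed in 1 or 2 of the 10 alternative fits. Without the miR-143 mock, RELB passed (1.82, adjusted p = 0.0387) and so did TNFAIP3 (0.69, adjusted p = 0.0443), and without the miR-139 mock CXCL8 passed as higher in HCT116 (-1.46, adjusted p = 0.0205). The spread between the 2 HCT116 mocks described above enters each of these errors. The alternative fit with each mock channel as a sample counts arrays that may hold the same mock RNA as separate samples.

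Of 57 tested pathway genes, 17 were higher in mock PANC-1, against 19.1% of all tested genes, and 6 in mock HCT116, against 21.4%, by limma at an adjusted p under 0.05. Among those named above, BIRC2, which was named whatever its ratio, was 1.51 higher in PANC-1 on the log2 scale (adjusted p = 0.0239 by limma). CCL2, BCL2A1, MAP3K14 and IER3 were named for ratios on PANC-1 arrays, of which mock PANC-1 is the denominator. Their differences are therefore a description, and no test of them is given. CCL2 was at a mean level of 9.72 in PANC-1 and was not well above background in HCT116 (5.78). This is at least 14.7-fold higher in PANC-1. BCL2A1 was 2.64 higher and MAP3K14 1.90 higher in PANC-1 on the log2 scale. IER3 was lower in PANC-1, by -1.27. NFKB1 (-0.15), RELA (0.59) and REL (0.12) did not pass, with adjusted p of 0.343, 0.0784 and 0.228. Nothing in the labels says that the mocks of a line came from separate cultures, so these p-values measure the spread between these samples.

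The genes whose log2 ratios followed BIRC3 most closely over the 8 arrays were PTS (Pearson r = 0.989), ARHGEF40 (0.978), CNTROB (0.97), IFIH1 (0.963) and KRT19 (0.957), of 2187 genes detected on all 8 arrays and 2-fold different on at least 1. PTS encodes an enzyme of tetrahydrobiopterin synthesis, IFIH1 a cytoplasmic sensor of double-stranded RNA, and KRT19 a keratin. Their Spearman rho was 0.833, 0.952, 0.833, 0.905 and 0.786. PTS stood at -1.24 after miR-30c-2-3p and -0.996 after miR-30a-3p, and KRT19 at -2.06 and -1.18, whereas their ratios on the HCT116 arrays were between 0.01 and 0.38. Among the members, RELB was closest (r = 0.879, rank 38 of 2187), then NFKB2 (0.857), NFKBIA (0.811) and CXCL1 (0.801).

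These correlations rest on few points and are a description. They use the 2 ratios that selected BIRC3, of which the one after miR-30c-2-3p lies farthest from the rest, and the genes ranked had to be 2-fold different on an array. The 8 points share a slide and, in pairs, mock cells that may be the same. Without the miR-30c-2-3p and miR-30a-3p arrays, over 6 arrays that still include miR-139-5p, r was 0.874 for PTS, 0.73 for ARHGEF40, 0.502 for CNTROB, 0.661 for IFIH1 and 0.743 for KRT19. Among the members it was 0.47 for RELB, -0.23 for NFKB2, -0.07 for NFKBIA and 0.28 for CXCL1.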

How the data were processed

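The deposited scanner output (Feature Extraction 11.5.1.1, per the file headers) gives the intensity of each spot and its local background in both channels, with outlier and well-above-background calls. The authors' deposited table holds the scanner's log10 ratio of Cy5 over Cy3. In R 4.3.3 with limma 3.58.1, intensities were corrected by normexp (offset 50), and log2 ratios were normalised by loess within each array. Outlier spots were left out, spots of a probe averaged, and a gene represented by its brightest probe. Channel levels were taken after Aquantile scaling. Mock lines were compared by limma on genes well above background in Cy3 on at least 2 arrays, with Benjamini-Hochberg adjustment. This fit was tested on simulated data first. No columns (0) lacked a sample.

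Members, gene lists and tests were chosen with earlier results of these data known. Named were the members, NFKB1, RELA, REL, BIRC2, TNF, IL1B, up to 6 other pathway genes per array and direction at 2-fold, and the 5 genes most like BIRC3. The comparison between mocks of a line was chosen after seeing the data. Alternatives were other background corrections, scalings, probe summaries and filters, and leaving out each mock. Figures were made in Python 3.11.15. One leukocyte marker is not reported here.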

Additional observations from a re-analysis of the deposited data

How the results depend on the processing

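Values are log2 ratios or counts of the 10 genes, in the order of the arrays. Of 252 alternative values of the counts, medians and BIRC3 ratios, 168 stayed within the replicate spread or 1.5 times the count and 84 did not. With 1 array per miRNA, the spread of a ratio holds no variation between arrays or cultures. A sign changed in 4, the BIRC3 ratio after miR-143-5p and the members' median after miR-139-5p, miR-143-5p and miR-30a-3p, given below. Of 456 for single genes, 220 stayed, 225 moved and 11 passed a threshold that the reported value did not.

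Without background correction, the members' median was 0.241 (miR-139-5p), 0.694 (miR-139-3p), 0.746 (miR-143-3p) and -1.433 (miR-30c-2-3p), and the BIRC3 ratio 1.848, 1.873, 1.534 and -3.454 on those arrays and -1.942 after miR-30a-3p. Then 2 members were higher in mock PANC-1 than in mock HCT116, and 2 were 2-fold higher in the miR-30a than in the miR-30c mock. Between those PANC-1 mocks, 59 of 19386 genes were then 2-fold higher. With an offset of 1, the median was 0.395, 0.95, 0.143 and 0.855 in HCT116, 0.844 after miR-30c-5p and -1.631 after miR-30c-2-3p. The BIRC3 ratio was 2.066, 2.187, 1.11 and 1.61 in HCT116, -3.544 after miR-30c-2-3p and -1.944 after miR-30a-3p. Members higher were 4 (miR-139-3p) and 2 (miR-30c-5p), members lower 7 (miR-30c-2-3p), and the mock counts 2 and 4. On these 3 arrays, all detected genes higher went from 436 to 1382 and from 156 to 445, and those lower from 857 to 2113.

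By the scanner's own ratio, the median was 0.487, 1.03 and 0.844 (miR-139-5p, miR-139-3p and the array labelled miR-143-3p), 0.816 (miR-30c-5p) and -1.917 (miR-30c-2-3p). The BIRC3 ratio was 2.199, 2.398, 1.121 and 1.621 in HCT116, -3.592 after miR-30c-2-3p and -1.997 after miR-30a-3p. Members higher were 2, 5 and 3 (miR-139-5p, miR-139-3p and miR-30c-5p), and 7 were lower after miR-30c-2-3p. Over all detected genes, those higher went from 12 to 397, from 436 to 2128 and from 156 to 892. Those lower after miR-30c-2-3p went from 857 to 2452. With median centring, the median was 0.185 (miR-143-5p) and, in PANC-1, 1.085, -1.005, 0.546 and 0.451. The BIRC3 ratio was 1.513 (miR-139-5p), 1.236 (miR-143-5p) and, in PANC-1, 1.269, -2.963, 0.594 and -1.106. After miR-30c-5p, 5 members were higher, and all detected genes higher went from 156 to 832.

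With the median over probes, that median was 0.522 after the miRNA labelled miR-143-3p. With no filter on dim probes it was 0.048 (miR-139-5p), 0.575 (miR-30c-5p) and -0.577 (miR-30c-2-3p). After subtracting the other 3 arrays of the line, BIRC3 reversed after miR-143-5p, to -0.377. It was 0.053, 0.123 and 0.201 on the other HCT116 arrays and 2.342, -2.828, 1.571 and -1.085 in PANC-1. The medians were -0.198, 0.163, -0.377 and 0.259 in HCT116 and 0.974, -1.516 and 0.512 on the first 3 PANC-1 arrays. Members higher were 0, 0, 0 and 1 in HCT116, 4 after miR-30c-5p and 1 after miR-30a-5p. The means subtracted on the last 2 arrays hold the miR-30c-2-3p ratios, among them the one that selected BIRC3. These counts are therefore a description. Over all detected genes, 89, 463, 71 and 105 were higher in HCT116, 163 after miR-30c-5p and 70 after miR-30a-5p.

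The mock counts include BIRC3, whose mock levels are part of the values that selected it, whereas the reported fit between the lines was read without BIRC3. The share of all tested genes that passed in each alternative fit is not given here. The counts of members that passed in those fits are therefore a description. With each mock channel as a sample, 5 members were higher in mock PANC-1. That fit counts the 2 arrays of a precursor separately although they may hold the same mock RNA, so its p-values overstate the replication. With 1 mock left out, the count was between 1 and 4. It was 2 without the miR-139 mock of HCT116, with 1 member (CXCL8) higher in HCT116 (0 to 1 over these fits), and 4 without the miR-143 mock. The mock left alone is then assumed to vary like those of the other line. No paired analysis was possible because the labels give the mocks of the lines no shared replicate numbers and each miRNA has 1 array. The cause of these changes was not tested. Dim genes (TNFAIP3, CXCL2, CXCL8, and CXCL1 after miR-30c-2-3p) are limited by signal over background, and 1 array per miRNA limits the precision of each ratio.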
